A study of Mus musculus with 367 samples.

Results

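The genes of the cytosolic ribosomal proteins were examined in single tdTomato-high cells of large mouse skin wounds. Members were all protein-coding genes with a symbol of the form Rpl or Rps and a number, with an optional letter or paralog ending, together with Rpsa, Rplp0, Rplp1 and Rplp2 and without the Rps6k kinases. This rule took 83 of the 50600 genes in the files, of which 51 encode large subunit proteins and 32 small subunit proteins. Of these, 77 are the standard subunit genes and 6 are paralogs (Rpl3l, Rpl7l1, Rpl10l, Rpl22l1, Rpl39l and Rps27l). All cells came from Sm22-Cre;tdTomato mice of mixed background, aged 3 to 8 weeks by the labels, with an excisional wound of 1.5 by 1.5 cm on the back. They were collected at post-wounding day 12 (3 captures), day 15 (2 captures) and day 21 (2 captures). Cre in this line is driven by the promoter of Tagln, a contractile gene also called SM22, so the sort is limited to cells in which that promoter has been active. Tissue of 2 to 3 animals was pooled per time point. It is not stated whether captures came from different animals, and p-values measure only the spread between captures, which may be technical.

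A ribosome is built from ribosomal RNA and one copy of most of its proteins, so the genes of these proteins are transcribed together at high levels in growing cells. Their messenger RNAs start with a run of pyrimidines, the terminal oligopyrimidine or TOP motif, through which TOR signalling controls their translation. The P proteins (Rplp0, Rplp1 and Rplp2) form the stalk of the large subunit that recruits elongation factors. A few proteins have paralogs that are used in certain tissues, such as Rpl3l in heart and skeletal muscle and Rpl10l and Rpl39l in male germ cells. Fibroblasts of a wound make and secrete large amounts of matrix protein.

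The start sites are shown first, since the pyrimidine run is the sequence feature these genes are known for. RefSeq start sites on GRCm38.p6 were matched for 63 of the 83 members. The windows printed here give the 15 bases before the annotated start and the first 15 bases from it, with the longest run of C and T in capitals, for all paralogs and their partners that have an entry and for some members described further on.
Rpl22l1: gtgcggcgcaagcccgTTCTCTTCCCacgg
Rpl22: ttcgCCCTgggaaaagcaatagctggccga
Rpl39l: ctcccaggCCTTTCCggatttccggtggtc
Rpl39: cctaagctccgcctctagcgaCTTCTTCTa
Rps27l: ccaCTCCTCCCCgccgcctctatcccggaa
Rps27: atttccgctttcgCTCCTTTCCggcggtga
Rpl10: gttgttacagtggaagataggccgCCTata
Rpl10l: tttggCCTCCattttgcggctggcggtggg
Rpl3l: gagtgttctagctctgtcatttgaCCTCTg
Rpl7l1: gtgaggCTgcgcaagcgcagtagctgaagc
Rps18: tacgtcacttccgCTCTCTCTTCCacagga
Rps6: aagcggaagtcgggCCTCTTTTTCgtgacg
Rpsa: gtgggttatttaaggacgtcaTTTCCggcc
Rpl5: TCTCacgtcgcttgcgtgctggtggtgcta
Rps4x: ctgaggctgggcggagcaacccaggCTCCa
Rplp0: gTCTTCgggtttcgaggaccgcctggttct
Rpl41: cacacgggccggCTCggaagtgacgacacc
These windows lie at chr3:28805493-28805522 (plus strand) for Rpl22l1, chr4:152325711-152325740 (plus) for Rpl22, chr16:10170213-10170242 (plus) for Rpl39l and chrX:37085208-37085237 (minus) for Rpl39. They lie at chr9:66946071-66946100 (plus) for Rps27l, chr3:90213634-90213663 (minus) for Rps27, chr17:33955651-33955680 (minus) for Rps18, chr4:86857353-86857382 (minus) for Rps6, chr9:120127751-120127780 (plus) for Rpsa and chr10:128549154-128549183 (minus) for Rpl41. Those of Rpl10 (chrX:74270801-74270830, plus), Rpl10l (chr12:66284387-66284416, minus), Rpl3l (chr17:24727811-24727840, plus), Rpl7l1 (chr17:46782642-46782671, minus), Rpl5 (chr5:107900513-107900542, plus), Rps4x (chrX:102189377-102189406, minus) and Rplp0 (chr5:115559452-115559481, plus) hold runs of 5 bases or fewer, as do those of Rpl22, Rpsa and Rpl41. RefSeq lists a further start for Rpl22, Rpl3l and Rps27l, and the one nearest to the annotated start of the gene is shown. A run of at least 7 pyrimidines was found in this window for 34 of the 63 members (54.0%), against 21.3% of 27025 genes in the table. The letters CCGGAAG, an ETS factor motif sought on both strands from 250 bases before to 50 bases after the start, were found for 26 of 63 members (41.3%) and for 9.93% of all genes. The letters TATAAA in the 50 bases before the start were found for 1 of 63 members (1.59%) and for 3.15% of all genes. These counts describe the annotated starts and were not tested. The members lie on 19 chromosomes, with 14 of them on chromosome 7 and 4 (Rpl10, Rpl36a, Rpl39 and Rps4x) on chromosome X.

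Expression is given in FPKM, fragments per length of transcript and per size of the library. The scaling by length is meant to allow comparison between genes, and how well it does so for the members was not tested. Of 367 cells, 292 passed the cell filters, with 27 to 73 per capture and a median of 994870 to 2314387 estimated fragments per cell in the captures. Cells were sorted into kinds by fixed limits on 3 genes that are not members: 198 matrix cells (Col1a1 at least 1000, Rgs5 below 100 and Tyrobp below 50 FPKM), 57 mural cells (Rgs5 at least 500 and Tyrobp below 50) and 26 myeloid cells (Tyrobp at least 500), with 11 cells in no kind. Limits of 2 times the high and of 0.5 times the low values would drop 7 matrix, 3 mural and 0 myeloid cells. These kinds were checked on marker lists, in which 11 fibroblast markers summed to 27076 to 47162 FPKM in the matrix cells of a capture, 11 mural markers to 9309 to 13088 in mural cells and 13 myeloid markers to 26716 to 52685 in myeloid cells. The fibroblast markers also summed to 6620 to 21663 in mural and to 100.1 to 16234 in myeloid cells. Of 4 T cell markers, Cd3e, Cd3g and Icos were at 0 in every class, and the list summed to at most 0.2525 FPKM. Endothelial markers reached 388 and B cell markers 335 FPKM in 1 myeloid class each. Adipocyte markers reached 197 FPKM in myeloid classes. In mural classes skeletal muscle markers reached 121 and Schwann cell markers 76.0 FPKM. The part that RNA of other cells plays in the values below was not tested. No 2 cells held identical values.

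Ribosomal protein genes took a large part of the measured RNA in all 3 kinds of cell. In matrix cells the members held 8.51% ± 1.07 (SD, n = 7 captures) of a cell's FPKM, with single cells between 2.69% and 17.9%. The mean was 8.38%, 8.82% and 9.15% in the day 12 captures, 7.32% and 9.70% in those of day 15, and 6.84% and 9.36% in those of day 21. The captures of day 15 and of day 21 therefore differed from each other by more than the days did. In mural cells the share was 9.24% ± 1.23 (SD, n = 5), with 9.31%, 10.2% and 10.3% at day 12, 9.29% at day 15 and 7.20% at day 21. It was above that of the matrix cells of the same capture in 5 of 5 captures with at least 3 mural cells, by 1.14 ± 0.583 percentage points. In day 15 capture 2, with 1 mural cell, that cell had 9.63% against 9.70% in matrix cells. In myeloid cells the share was 9.47% ± 1.16 (SD, n = 4). It lay below that of the matrix cells at day 12 (8.12%) and day 15 (8.88%) and above it in both captures of day 21 (10.3% and 10.5%). No test was run on these shares, since the members were chosen with results of these data known. Of 83 members, the median matrix cell had 79 or 80 above 0 in every capture.

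**Figure D1:**
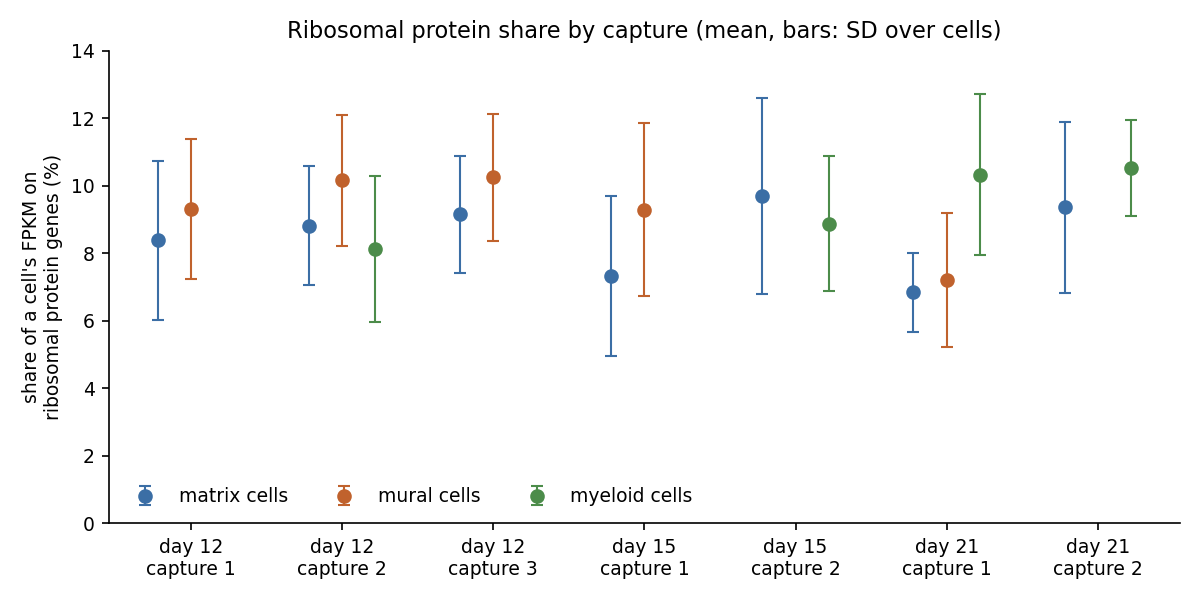
Share of a cell's FPKM on the 83 ribosomal protein genes (y axis, %) for each of the 7 captures (x axis), as the mean over cells of a kind with bars for the SD over cells, in captures with at least 3 cells of that kind. Mural cells lie above matrix cells in the 5 captures with at least 3 cells of both, and the matrix mean is lowest in capture 1 of day 21, at 6.84%.

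The members spanned a wide range of levels. Among the 77 standard genes, 22 were above 1000 FPKM and 72 above 100 FPKM in the mean of matrix cells over captures, with a median of 557.9 FPKM. Rpl41, a very small basic protein of the large subunit, was highest at 4936 ± 1027 FPKM (SD, n = 7), and was above 0 in 198 of 198 matrix cells. Among the next in order were Rps25 at 2393 ± 844.1, Rps27, a zinc finger protein of the small subunit, at 2251 ± 590.3 and Rps18 at 2236 ± 667.8. The 10 highest members held 37.5% of the summed level of all 83. The order was not sharp, since 77 of 82 neighbours in it differed by no more than the larger of their SDs over captures.

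Of the stalk genes, Rplp2 lay below the other 2 by more than their SDs. Rplp1 was at 1503 ± 317.2, Rplp0 at 1398 ± 369.5 and Rplp2 at 910.8 ± 161.2 FPKM (SD, n = 7). Rpsa, a small subunit protein that is also known as a laminin receptor precursor, was at 1348 ± 262.3 FPKM.

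The lowest members were paralogs and a few standard genes. Rpl3l and Rpl10l had means of 0.069 and 0.068 FPKM, and were above 0 in 1 and 9 of 198 matrix cells. Rpl3l was above 0 in 0 of 57 mural and 0 of 26 myeloid cells, where 3 cells with a fragment would be 5.26% and 11.5%, a limit that covers counting error only and not the spread between captures. Rpl12 stood at only 5.54 ± 2.12 FPKM, although its product is part of every ribosome, and was above 0 in 122 of 198 cells. Rpl7l1 was at 27.2 ± 5.02, Rpl5, which with Rpl11 carries the smallest ribosomal RNA to the ribosome, at 35.1 ± 22.7, Rpl27 at 43.0 ± 17.2 and Rps12 at 49.9 ± 19.3 FPKM. Fragments that align to a gene and to its processed pseudogenes are shared out among them by the quantification, so levels of members with such copies are uncertain. Pseudogenes named after the member summed to 517 FPKM for Rpl27 and to 302 FPKM for Rps12, above the gene itself, as for 9 of the 83 members. For Rpl12 and Rpl5 pseudogenes named in this way summed to 0.025 and 0.814 FPKM. Copies under other names were not summed, and the part of copies in these levels was not tested. The other 7 were Rps23 (1305 FPKM on pseudogenes against 282.9 on the gene), Rpl34 (1246 against 452.3), Rpl10 (797.4 against 326.8), Rpl15 (650.3 against 394.2), Rpl3 (530.9 against 347.7), Rpl28 (529.8 against 356.1) and Rpl31 (436.5 against 308.2). The members of this list were chosen after their values were seen. In addition, 17 members overlap another protein-coding gene, such as Rpl12 with Lrsam1 and Rpl5 with Fam69a, and it is not stated that counting used the strand.

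**Figure D2:**
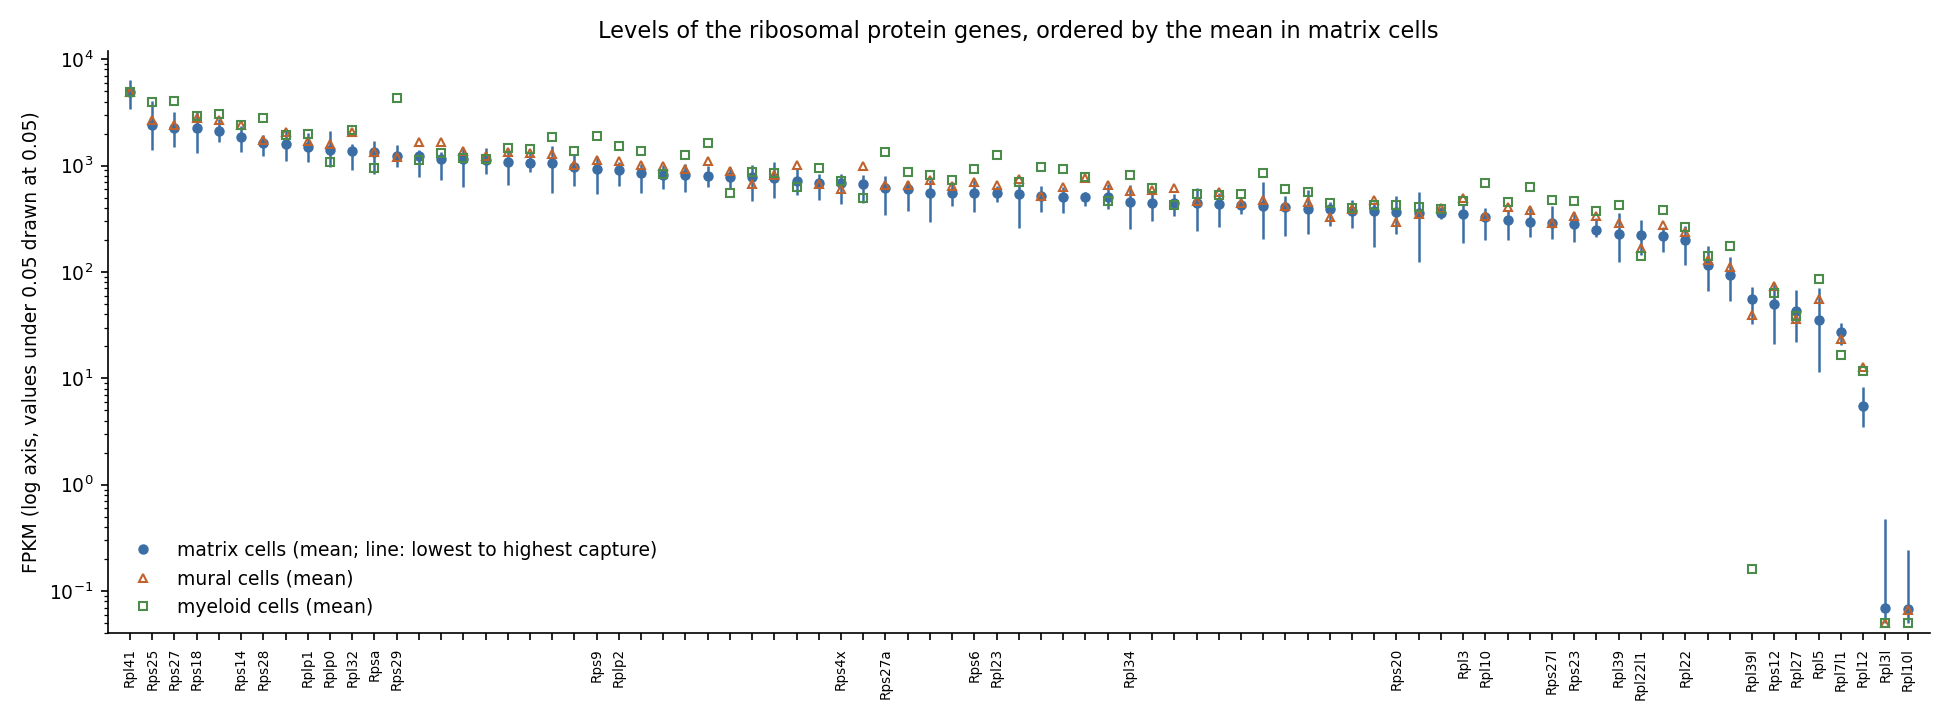
Level of 81 of the members (x axis, ordered by matrix cells, with some of the members described in the text named) in FPKM on a log axis (y axis), with filled points for the mean of matrix cells over 7 captures, lines from the lowest to the highest capture, triangles for mural cells (5 captures) and squares for myeloid cells (4 captures). Rpl41 leads at 4936 FPKM in matrix cells, Rps29 stands above its neighbours in myeloid cells at 4299 FPKM, and Rpl39l lies at 0.16 FPKM there.

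Within a capture the members were positively correlated over matrix cells. The median Spearman correlation between pairs of the 77 standard genes was 0.238, 0.245 and 0.181 in the day 12 captures (31, 26 and 17 cells), 0.272 and 0.215 at day 15 (50 and 22 cells) and 0.0671 and 0.158 at day 21 (18 and 34 cells). For pairs of other genes averaging 100 FPKM or more the median was 0.0105 to 0.109. These are descriptions, and the cells of a capture share its library preparation while the genes share each cell's total. The share on small subunit genes and that on large subunit genes had correlations of 0.602 to 0.897 over cells. The share of members was negatively correlated with the level of Col1a1, the main matrix collagen, at -0.606 to -0.0196 in 7 of 7 captures, and both are parts of the same total. It was also negatively correlated with the mitochondrial share of FPKM, at -0.489 to -0.00516 in 7 of 7 captures. The cause of these correlations was not tested. Over cells, Rpl39l was the most variable member in matrix cells (median SD 3.26 of log2(FPKM + 1) within a capture), against 0.547 for Rpl41 and 0.555 for Rps29.

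The first comparison asked whether ribosomal protein genes differ between mural and matrix cells of the same wound. Most members were higher in mural cells by a small amount, but none passed the test over all genes. The differences of class means on the log2(FPKM + 1) scale had a median of 0.31 over the 81 members tested. The median was -0.22 over all 13823 genes tested and 0.11 over the 1168 genes averaging 100 FPKM or more. Of the 81 members 70 were above 0, beside 41.1% of all genes and 58.3% of those 1168. Of all genes, 1.71% passed an adjusted p of 0.05 (0.948% higher and 0.76% lower, limma with the capture as a block and Benjamini-Hochberg adjustment), and 0 of 81 members did. At an unadjusted p below 0.05 there were 20 members, all 20 higher in mural cells, where 4.77% of all genes were higher and 9.52% lower at that level. The other 2 members, Rpl3l and Rpl10l, were too low to be tested. Without day 15 capture 1 the member median was 0.18. For the mean of log2 values it was 0.16, with 54 of 81 above 0 (47.9% of all genes). At an unadjusted p below 0.05 in limma there were then 5 members. That count was 0 without limma's variance trend and 10 with no replicate block. It was 11 with cells rescaled to the same sum and 34 with class means rescaled by the median ratio. The count of 20 therefore depends on the setting. The share of all genes at that level is not reported here for these settings.

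Rpl32, a large subunit protein, had the smallest p of the members. In the 5 captures with at least 3 cells of both kinds (day 12 captures 1 to 3, day 15 capture 1 and day 21 capture 1) it was at 1385, 1569, 1600, 911.7 and 992.5 FPKM in matrix cells and at 2197, 2231, 2088, 2235 and 1496 FPKM in mural cells. It was higher in mural cells in 5 of 5 captures, although the lowest mural value lay within the range of the matrix values. The difference was 0.69 ± 0.15 (SE) with an adjusted p of 0.058 in limma. Rps14, a protein of the small subunit platform, differed by 0.52 ± 0.13 (adjusted p 0.079 in limma) and Rps18, of the small subunit head, by 0.42 ± 0.10 (adjusted p 0.080 in limma), each higher in 5 of 5 captures. Rpl32 overlaps the end of Cand2, Rps14 overlaps Ndst1 and Rps18 overlaps Vps52.

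The other 11 members tested lay below 0, 4 of them paralogs. Of these 11, Rpl39l differed by -0.92 ± 0.62, Rpl7l1 by -0.79 ± 0.65, Rpl22l1 by -0.42 ± 0.32 and Rps20 by -0.41 ± 0.28 on the same scale, with adjusted p values of 0.55, 0.63, 0.60 and 0.56 in limma. Rplp0, Rplp1 and Rplp2 differed by 0.35, 0.33 and 0.31, with limma adjusted p values of 0.28, 0.35 and 0.62. Rpsa was at 208 FPKM in the mural cells of day 21 capture 1 and at 1163 to 2036 in those of the other captures, and its difference was -0.23 ± 0.32 (adjusted p 0.78 in limma). After each cell was rescaled to the same sum, the median of the members was 0.19, with 59 of 81 above 0 (36.7% of all genes). After class means were rescaled by the median ratio it was 0.46, with 73 of 81 above 0 (46.2% of all genes). The summed FPKM of a cell averaged 754839 in matrix and 815649 in mural classes, and its part in the difference was tested only through these scalings.

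**Figure D3:**
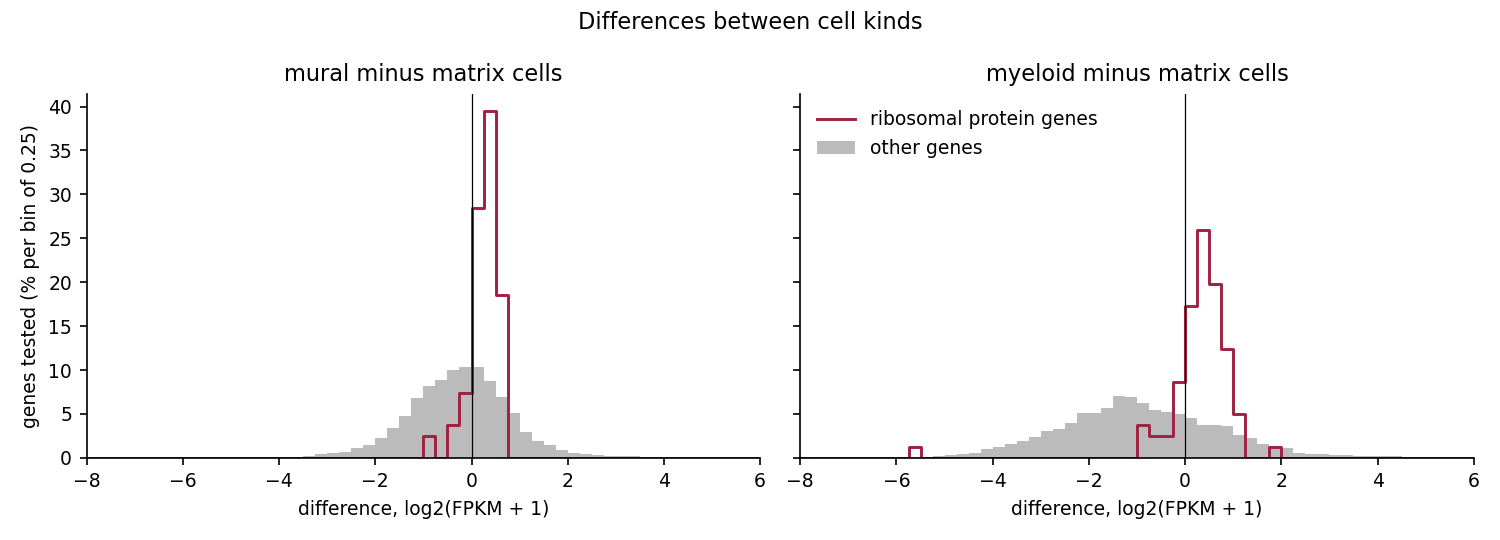
Differences of class means on the log2(FPKM + 1) scale (x axis, bins of 0.25) for mural minus matrix cells (left, 5 captures) and myeloid minus matrix cells (right, 4 captures), as the percentage of genes tested (y axis). The red outline (81 members) is centred above 0 in both panels, at medians of 0.31 and 0.39, while the grey bars (all other genes tested) are centred below 0, and a single member, Rpl39l, lies near -5.69 on the right.

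The second comparison set myeloid cells against matrix cells in the 4 captures with at least 3 cells of both (day 12 capture 2, day 15 capture 2 and day 21 captures 1 and 2). Here 3 members passed, 2 higher and 1 lower. Among them, Rps29 of the small subunit rose in myeloid cells, and the large subunit paralog Rpl39l fell. Of all 13059 genes tested 6.59% passed (1.69% higher and 4.9% lower), so 3 of 81 members is below the share among all genes. The median difference over members was 0.39, against -0.998 over all genes and -0.03 over the 1204 genes averaging 100 FPKM or more. Of the 81 members 66 were above 0, beside 28.3% of all genes and 49.1% of those 1204. After rescaling each cell to the same sum the member median was 0.03, with 43 of 81 above 0 (22.8% of all genes). For the mean of log2 values it was 0.03, with 41 above 0 (34.5% of all genes). After rescaling class means by the median ratio it was 0.79, with 74 above 0 (34.6% of all genes). The member median stayed above 0 in these settings while its size moved with the scale, and the summed FPKM of a cell averaged 957774 in myeloid classes. At an unadjusted p below 0.05 there were 9 members higher and 1 lower, where 4.49% and 23% of all genes were. In either direction, 2 members were at that level without limma's variance trend and 34 with class means rescaled by the median ratio. The share of all genes at that level is not reported here for these settings.

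Rps29, a zinc-binding protein of the small subunit head, lies on chromosome 12 (69157722 to 69159186, minus strand, GRCm38) and overlaps no other annotated gene. It was at 3285, 3541, 4574 and 5795 FPKM in the myeloid cells of the 4 captures and at 1318, 1368, 967.5 and 1226 FPKM in their matrix cells. The groups did not overlap, and the means of the other matrix and mural classes were at most 1547 FPKM. The captures with only 2 and 1 myeloid cells, which were not in the fit, had means of 2204 and 2869 FPKM. The difference was 1.79 ± 0.24 (SE, adjusted p 0.0021 in limma), higher in 4 of 4 captures. Single myeloid cells ranged from 1010 to 8995 FPKM with a median of 3117, and matrix cells from 8.05 to 3893 with a median of 1137. Between mural and matrix cells Rps29 differed by 0.00 ± 0.15 (adjusted p 0.99 in limma).

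The members with the smallest p among those that did not pass were Rps9, Rps27, Rps27a, Rpl23 and Rps28, which were chosen after their values were seen. Their differences were 1.04, 0.71, 1.09, 1.17 and 0.77, with adjusted p values of 0.055, 0.07, 0.073, 0.074 and 0.08 in limma. Each was higher in myeloid cells in 4 of 4 captures.

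The share on large subunit genes relative to that on small subunit genes was lower in myeloid cells. The ratio of the mean shares was 1.08, 1.07, 1.06 and 1.03 in the myeloid cells of the 4 captures and 1.17, 1.26, 1.22 and 1.26 in the matrix cells. Without Rps29 the ratios were 1.154 to 1.183 and 1.22 to 1.31, lower in 4 of 4 captures in both cases and without overlap. The captures with only 2 and 1 myeloid cells differed from this, with ratios without Rps29 of 1.428 and 1.344 in myeloid against 1.349 and 1.311 in matrix cells. In mural cells the ratio was 1.22 to 1.399 and lay below that of matrix cells in 1 of 5 captures. No test was run on the ratio.

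Rpl39l encodes a paralog of Rpl39, a small protein that lines the exit tunnel of the ribosome, and lies on chromosome 16 (10170226 to 10174911, plus strand) with no overlapping gene. In matrix cells it was at 71.1, 51.7, 51.9 and 57.4 FPKM in the 4 captures, and in myeloid cells it was at 0.638 FPKM in the first and listed at 0 in the other 3. Its difference of -5.69 ± 0.93 (adjusted p 0.0090 in limma) depends on the pseudocount, with values of -8.45 to -1.63 over the settings. It was above 0 in 95 of 198 matrix cells (48.0%, 95% Clopper-Pearson interval 40.8% to 55.2%), in 16 of 57 mural cells (28.1%, 17.0% to 41.5%) and in 1 of 26 myeloid cells (3.85%, 0.0973% to 19.6%). These intervals cover counting error within the cells only. The median estimated depth was 1656778 fragments in matrix, 1820037 in mural and 2165985 in myeloid cells, while in day 15 capture 2 it was 1056466 in matrix and 905091 in myeloid cells. The median number of genes above 0 was 5808 in matrix and 4962 in myeloid cells, and the part of depth in these shares was not tested. In matrix cells of all 7 captures the share of cells above 0 ranged from 29.0% to 68.2%. Rpl39 itself was above 0 in 24 of 26 myeloid cells, and 23 of these 24 had no Rpl39l. No cell of the 3 kinds had Rpl39l without Rpl39.

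**Figure D4:**
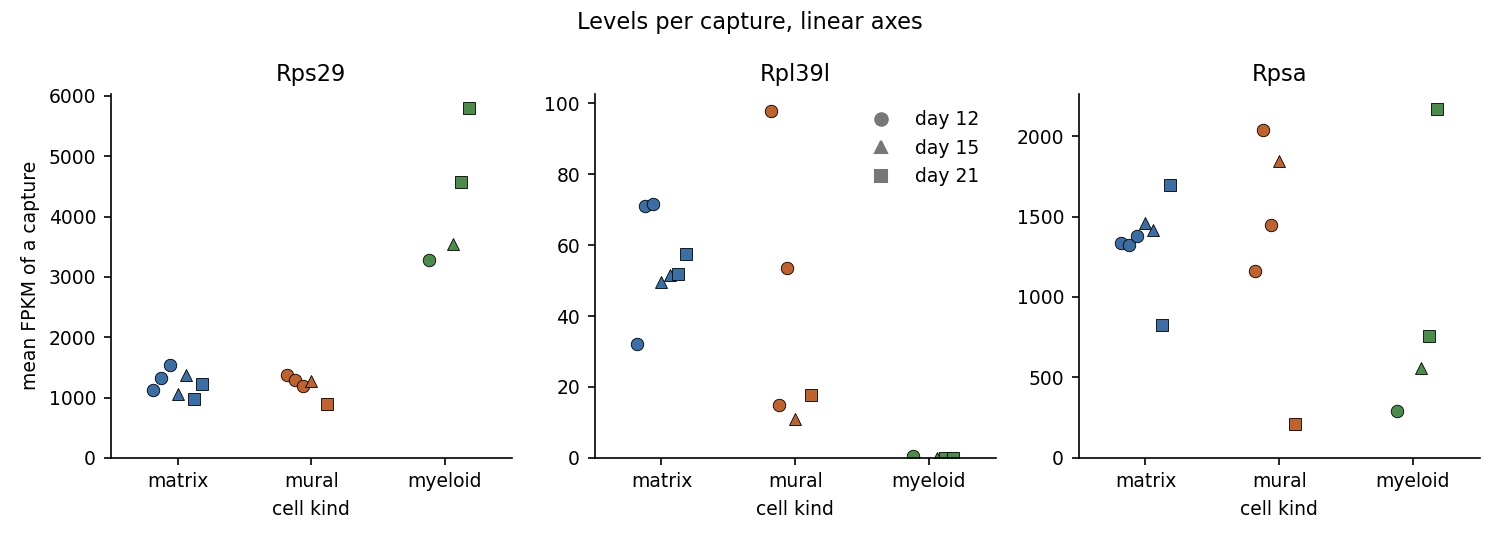
Mean FPKM per capture (y axes, linear and starting at 0) of Rps29, Rpl39l and Rpsa in matrix, mural and myeloid cells (x axis), with a circle for day 12, a triangle for day 15 and a square for day 21. Myeloid values of Rps29 (3285 to 5795) lie above all others, those of Rpl39l lie at 0 to 0.638, and Rpsa ranges from 292 to 2167 in myeloid cells.

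Rpsa was the member with the largest negative difference in myeloid cells after Rpl39l, at -0.82 ± 0.43 (adjusted p 0.24 in limma). Its level was 292, 555.6, 760.4 and 2167 FPKM in myeloid cells against 1325, 1414, 824.6 and 1695 in matrix cells, so that 1 capture of day 21 went the other way. It was above 0 in 20 of 26 myeloid and 197 of 198 matrix cells. Rpl22l1 and Rpl7l1 differed by -0.80 ± 0.68 and -0.75 ± 1.02 (adjusted p 0.46 and 0.65 in limma). Rplp0, Rplp1 and Rplp2 differed by -0.37, 0.29 and 0.65 with adjusted p values of 0.41, 0.49 and 0.22 in limma, so the stalk genes did not share a direction.

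The paralogs were compared with their partners within each class, as the percentage of the summed FPKM of the pair. Rpl22l1, paralog of the RNA-binding protein Rpl22, took as much as its partner: 49.9% to 56.4% of the pair in the matrix cells of 7 captures. In mural cells it took 37.0%, 38.7%, 46.4%, 40.3% and 41.9%, below every matrix value, with a mean difference within captures of -13.2 ± 3.22 percentage points (SD, n = 5). The exact two-sided sign-flip test over captures gave p = 0.0625, which is the smallest it allows with 5 captures, and 0.333 after adjustment over the 8 pair comparisons. In myeloid cells the share of Rpl22l1 was 19.7%, 52.2%, 19.0% and 62.7%, which spans both sides of the matrix values. Rpl39l held 20.2% ± 4.59 of its pair in matrix cells (SD, n = 7), 11.8% ± 8.91 in mural cells (n = 5) and 0% to 0.105% in myeloid cells (n = 4, exact p = 0.125, the smallest allowed with 4). The mural difference of -8.81 ± 10.7 points was not beyond the spread (exact p = 0.188).

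Rps27l, which is known as a target of the p53 response, held 11.8% ± 2.95 of the Rps27 pair in matrix cells, 11.1% ± 3.58 in mural and 10.6% ± 4.09 in myeloid cells, with overlapping captures. Rpl7l1 held 2.84% ± 0.8288, 1.99% ± 1.29 and 1.1997% ± 0.609 of the pair with Rpl7. Rpl3l and Rpl10l held at most 0.204% and 0.0928% of their pairs in any class. Rps4x, the X-linked small subunit gene, was at 679 ± 155.9 FPKM in matrix cells and its differences were -0.06 in mural and -0.00 in myeloid cells (adjusted p 0.92 and 1.0 in limma). Rpl3, a protein at the peptidyl transferase centre, was at 347.7 ± 98.7 FPKM and Rpl10, which is needed for the joining of the subunits, at 326.8 ± 72.1 FPKM in matrix cells.

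**Figure D5:**
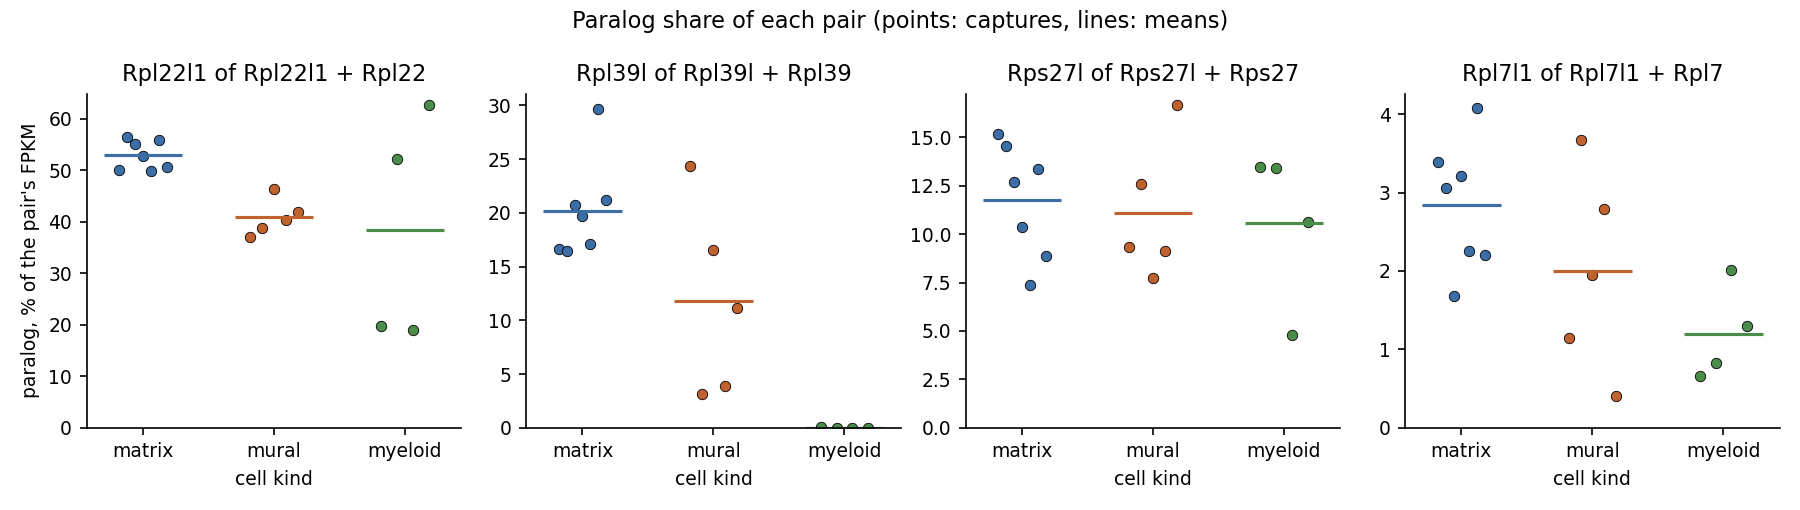
Share of the paralog in the summed FPKM of its pair (y axes, %, starting at 0) for Rpl22l1, Rpl39l, Rps27l and Rpl7l1 in matrix, mural and myeloid cells (x axis), with points for captures (7, 5 and 4) and lines for their means. Rpl22l1 lies at 49.9% to 56.4% in matrix and at 37.0% to 46.4% in mural cells without overlap, and Rpl39l at 0% to 0.105% in myeloid cells.

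The remaining comparisons asked whether matrix cells changed from day to day, and no member passed between any pair of days. Of 13552 genes tested 0% passed between days 12 and 15, 0.00738% (1 gene, no member) between days 12 and 21 and 0% between days 15 and 21. At an unadjusted p below 0.05 there was 1 member, lower at day 15 than at day 12, and 0 in the other 2 comparisons. Of all genes, 2.08% were higher and 3.76% lower at that level from day 12 to day 15, 2.46% and 4.69% from day 12 to day 21, and 2.19% and 3.31% from day 15 to day 21, or 5.84%, 7.14% and 5.5% in either direction. The median difference of the 81 members was -0.11 from day 12 to day 15, -0.27 from day 12 to day 21 and -0.11 from day 15 to day 21, beside -0.10, -0.19 and -0.05 over all genes. The smallest p belonged to Rpl5 for day 15, which was at 32.4, 58.4 and 70.0 FPKM at day 12 and at 18.8 and 11.5 at day 15, a difference of -1.73 ± 0.65 (adjusted p 0.78 in limma) without overlap between these days. At day 21 Rpl5 was at 41.3 and 13.5 FPKM. Rps27l and Rps6, the substrate of the S6 kinases, differed by -0.65 ± 0.33 and -0.62 ± 0.34 at day 15 (adjusted p 0.87 and 0.88 in limma). From day 12 to day 21, Rpl5 differed by -1.07 ± 0.65 and Rps27l by -0.54 ± 0.33 (adjusted p 0.76 and 0.77 in limma). From day 15 to day 21, Rpl41 differed by -0.55 ± 0.26, Rps13 by -0.57 ± 0.43 and Rpl8 by -0.44 ± 0.35 (adjusted p 0.89, 0.90 and 0.91 in limma). Against the median stood Rpl30, Rpl35a, Rpl41 and Rplp1 for days 12 and 15, at 0.73, 0.31, 0.31 and 0.22. For days 12 and 21 these were Rplp0, Rplp1, Rps15 and Rpl28, at 0.093, 0.090, 0.084 and 0.060. For days 15 and 21 they were Rpl5, Rpl35, Rpl12 and Rps6, at 0.66, 0.34, 0.30 and 0.30.

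The captures of a day did not agree on the level of the members. In matrix cells 58 of the 77 standard genes had their lowest value in capture 1 of day 21, and 29 had their highest in capture 2 of the same day. Capture 1 of day 15 held 12 of the lowest values and 0 of the highest. The matching shares over all genes are not reported here, so these counts do not set the members apart from other genes. The summed FPKM of matrix cells averaged 663235 in capture 1 of day 21 and 756546 to 791560 in the other captures. From day 12 to day 21 the member median was 0.11 without capture 1 of day 21. Of the 81 members 56 were then above 0, beside 43.9% of all genes. Without capture 2 of day 21 the median was -0.63, with 0 of 81 above 0 (39.8% of all genes). The direction between these days therefore rests on single captures. From day 12 to day 15 the median was 0.05 without capture 1 of day 15 and -0.31 without capture 2 of day 15. For the mean of log2 values it was -0.64 with 3 of 81 above 0, beside -0.21 and 27.2% over all genes. In that setting 7 members were at an unadjusted p below 0.05 in limma. The share of all genes at that level is not reported here. From day 15 to day 21 the member median was 0.22 without capture 1 and -0.50 without capture 2 of day 21. It was -0.32 without capture 1 and 0.08 without capture 2 of day 15, and 0.24 with the mean of log2 values.

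Other genes of protein synthesis were described from lists. Of 22 translation factors and further TOP genes, 0 passed in either comparison of kinds, with a median difference of 0.23 in mural and -0.18 in myeloid cells. Genes of ribosome biogenesis had medians of -0.21 (24 tested, 0 passed) and -1.16 (22 tested, 2 fell), where 4.9% of all genes fell in myeloid cells. The 2 were Nob1, the nuclease that finishes the small subunit RNA, at a mean of 11.5 FPKM in matrix cells and listed at 0 in myeloid cells, and Nop16, at 33.4 and 3.57 FPKM (adjusted p 0.037 and 0.048 in limma). Of mitochondrial ribosomal protein genes 0 of 78 passed in mural cells, with a median of -0.28, and 5 of 77 fell in myeloid cells, with a median of -1.43. This count is near the share of 4.9% among all genes and is no result about the list. These, named after their values were seen, were Mrpl47, Mrpl55, Mrps10, Mrps16 and Mrps28, with matrix means of 16.3 to 106.2 FPKM and myeloid means of 0.403 to 3.68 FPKM. Of 13 genes of TOR and translational control tested in myeloid cells only Eif4e, the cap-binding factor, passed, at 28.4 against 174.3 FPKM in matrix cells (adjusted p 0.041 in limma), beside a median of -1.07 for that list. The median over all genes was -0.998 in that comparison, whose myeloid classes held 3 to 11 cells. Between days 0 genes of these lists passed. The pseudogenes named after members had medians of 0.13 in mural cells (58 tested) and 0.22 in myeloid cells (52 tested), and 0 of them passed.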

How the data were processed

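Single tdTomato-high cells were captured with the Fluidigm C1 system and sequenced as full-length, paired-end cDNA. The authors aligned reads to mm10 with Bowtie 1.0.0 and GENCODE mouse release 13 and quantified them with RSEM, which divides fragments that align to several transcripts. The deposited values are FPKM per gene and cell, without counts. Gene types and positions are from GENCODE mouse release 21 (GRCm38), which lacked 224 gene identifiers. Fragments per cell were estimated from steps between the values of a cell's single-transcript genes. Cells below the minimum of aligned reads given in the study's methods, above 11000 genes or above 15% mitochondrial FPKM were dropped. No doublet caller was run.

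FPKM values were averaged over the cells of a kind in each capture with at least 3 such cells, and log2(mean + 1) was compared with limma 3.58.1 (R 4.3.3) with a variance trend, for genes averaging 1 FPKM or more, two-sided, with Benjamini-Hochberg adjustment over all genes tested. The capture was a block between kinds, since both class means came from it. Days were compared in 1 fit of 7 matrix class means. Days were not paired by capture number. Deviations of same-numbered captures correlated at -0.00685 to 0.0250. No captures of different numbers were set beside them, so this does not settle whether the numbers pair days. The limma fits and the estimate of fragments per cell were tested on simulated data. The limma simulation drew independent noise for each gene and held no effect of a capture. It therefore does not show how the fits behave where a capture shifts many genes together. The depth simulation used the transcript lengths that the estimate assumes. The sign-flip tests, the intervals and Dixon's criterion were not tested in this way. Python 3.11.15 with numpy 2.4.6, pandas 2.3.3 and scipy 1.17.1 was used.

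Members and lists were chosen with earlier results of these data known. Named are the stalk genes, Rpsa, the paralog pairs, the 5 highest and 5 lowest members, members past an adjusted p of 0.05 or else those with the 3 smallest p, and up to 4 members against the sign of the median. Lists of translation factors and TOP genes, ribosome biogenesis, mitochondrial ribosomal proteins, TOR and translational control, and pseudogenes were counted. Alternatives were the pseudocount, filters on low values and cells, scaling, the summary over cells, limits on kinds, variance trend, gene types, the block and each capture left out. An average of at least 100 FPKM, cells of at least 500000 estimated fragments, and the settings for shares and correlations were added after seeing the data. Some genes that this rule names are not reported here.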

Additional observations from a re-analysis of the deposited data

Results flagged for a closer look

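In each kind, named members were searched for a capture that stood apart from the others by Dixon's criterion. Chance meets it in about 1 of 20 groups if values are independent and normally distributed. Of 108 groups, 15 (13.9%) held such a capture. The groups share captures, and a normal distribution of the FPKM values was not tested. For Rpl39l in myeloid, Rpl3l in matrix and Rpl10l in mural cells, all other captures held the same value. Any capture that differs then meets the criterion. The share of 13.9% therefore cannot be compared with 1 of 20, and no excess over chance is drawn from it. Capture 1 of day 21 was low in mural cells for Rpl32 (1496 FPKM, others 2088 to 2235), Rpl3 (190.1, others 555.7 to 622.2) and Rps6 (394.6, others 728.2 to 833.8), and low in matrix cells for Rpl8 (370.6, others 571.3 to 713.2) and Rpsa (824.6, others 1325 to 1695). The same capture was high in myeloid cells for Rpl28 (747.7, others 246.3 to 317.2) and Rps14 (2920, others 2198 to 2265).

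Capture 2 of day 21 was high in myeloid cells for Rplp0 (1351 FPKM, others 964.0 to 1026) and Rps27 (5930, others 3133 to 3579). Capture 2 of day 12 was high for Rpl12 in myeloid cells (34.1, others 2.70 to 5.96), for Rps27l in mural cells (452.5, others 200.5 to 270.5) and, as the only value above 0, for Rpl39l in myeloid cells (0.638). Rpl10l stood apart at 0.245 FPKM in matrix cells of day 12 capture 3 (others 0 to 0.101) and at 0.332 in mural cells of day 12 capture 1 (others 0), and Rpl3l at 0.480 in matrix cells of day 15 capture 1 (others 0).

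The share of FPKM on the members was higher in myeloid than in matrix cells in both captures of day 21, by 2.33 percentage points on average, and lower in the single captures of day 12 (-0.696 points) and day 15 (-0.822 points). This difference between days was not tested.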

How the results depend on the processing

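Shares of FPKM and the correlation of members moved by less than 1 SD in every setting, with shares without 1 capture at 8.31% to 8.79% in matrix, 8.99% to 9.75% in mural and 9.11% to 9.91% in myeloid cells. The count of members that passed in mural cells was 0, and was 1 with a mean of at least 10 FPKM, without cell filters, with stricter limits on the kinds or with protein-coding genes only, 3 with class means rescaled by the median ratio (228 of all 13621 genes) and 6 of 74 with a mean of at least 100 FPKM (192 of all 1168 genes). It was 0 without any 1 capture and 0 with no replicate block. In myeloid cells the count of 3 became 0 without a filter on low values or with the median over cells, 1 with at least 5 cells or no variance trend, 8 with median-ratio scaling (470 of all 12655 genes), 5 with protein-coding genes only (999 of 10760), and 5 of 75 with a mean of at least 100 FPKM (204 of 1204). With the median over cells 39.9% of genes in myeloid, 41.2% in mural and 50.1% in day comparisons had no residual variance, against 0% with the mean, so limma's counts under that setting are unreliable and say nothing about stability. Without 1 capture the myeloid count was 2 to 4, and 2 with no replicate block. Rps29 kept its call in 18 of 21 settings and Rpl39l in 17 of 20, with the unreliable median over cells counted among these settings. The average of at least 100 FPKM was chosen after seeing the data. In the main fits 1.71% of all genes passed in mural and 6.59% in myeloid cells. For the counts given without a share over all genes, that share is not reported here, and they are no result about the members. The cause of the changes in these counts was not tested. Between days 0 members passed in any setting, the replicate block on capture numbers and the unreliable median over cells included. Rpl5 turned to 0.78 at day 15 against day 12 without cell filters, and Rpl8 to 0.0923 at day 21 against day 15 with the mean of log2 values. The median of all genes, -0.22 in mural and -0.998 in myeloid cells, became -0.10 and -0.75 with median-ratio scaling and -0.32 and -1.2 with cells rescaled to the same sum. With median-ratio scaling 42 members instead of 20 lay above 0 from day 12 to day 15 and 28 instead of 8 from day 12 to day 21. The difference of mural minus matrix cells between days was not run, since only day 12 has several such captures. Depth is known only as an estimate, and class means of 3 to 11 myeloid cells limit low genes.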

Other observations

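The 11 kept cells that fell in none of the 3 kinds came from 4 captures. Their share of FPKM on ribosomal protein genes was 4.04% to 15.6% with a median of 7.33%, and Rpl39l was above 0 in 5 of them.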
